A study of Mus musculus with 16 samples.

Results

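Mitochondrial ribosomal proteins are encoded in the nucleus, made in the cytosol and imported into mitochondria, where they assemble with mitochondrial ribosomal RNA into the ribosome that translates the few mRNAs of the mitochondrial genome. Those mRNAs encode core subunits of the respiratory chain and of ATP synthase, on which neurons depend heavily for energy. The large subunit joins amino acids into peptides and the small subunit reads the mRNA; some proteins have bacterial homologues and others occur only in mitochondria. The members were all rows of the count table whose symbol is Mrpl or Mrps followed by a number and at most 1 letter, with a total of at least 160 counts over 16 libraries. They were 77 of 24047 genes, and all 77 passed both this minimum and the filter on low counts, beside 14775 genes tested. By their place in the ribosome 50 belong to the large subunit and 26 to the small subunit. Of these 76, 46 were classed as having bacterial homologues and 30 as specific to mitochondria. Mrps30 and Mrps18a carry small-subunit names but sit in the large subunit. Mrps36 carries a ribosomal name but encodes a subunit of the 2-oxoglutarate dehydrogenase complex.

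RNA was measured by bulk sequencing in the hypothalamus of C57BL/6J mice made obese by diet, with 4 libraries in each of 4 groups. All mice were first injected with DMSO for 1 week, and treatments then lasted 4 days. Veh mice received DMSO and CS mice received celastrol, a plant triterpenoid, at 100 µg per kg per day, both fed freely. The PF group was injected with DMSO and limited to 0.5 g of diet daily (0.34 g for the dark phase, 0.16 g for the light phase). The PF+CS group had that limit together with celastrol. The ration was less than the 0.8 g per day that celastrol-treated mice ate. The last injection was at about 8 am and tissue was taken 6 h later. Each comparison below asks how these transcripts differ between 2 of the treatments, or whether the difference with celastrol depends on the ration.

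The group names CS and PF are in doubt. The baseMean values of the 5 tables of comparisons deposited by the authors could be computed exactly from count columns, and in 3 of the 5 the columns that gave them were not those of the table's name: CS and PF had changed places. The group names of the count columns are used here. If the table names are right, every value given for CS minus Veh belongs to PF minus Veh and the reverse, the contrasts of PF+CS with PF and with CS are exchanged in the same way, and the sign of CS minus PF is turned. Neither PF+CS minus Veh nor the interaction depends on the reading.

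Library totals ran from 6008564 to 12880459 counts, so a single member had between 20 and 545 counts in a library. All 10 marker genes of hypothalamic neurons were measured, among them Pomc, Agrp and Avp, and of 5 pituitary markers only Cga passed the filter. The summed level of 8 markers of meningeal fibroblasts was 62.7 to 73.5 counts scaled to library size (CPM) in 5 libraries (Veh 3, PF 1, PF 2, CS 2 and PF+CS 4) and 177 to 289 CPM in the other libraries. Those 5 libraries stand apart, and values without them are given below where they change a call. Of 5 markers each, 4 of striatum and 5 of thalamus passed the filter. The summed striatum markers were 118 to 131 CPM in Veh, 132 to 154 in PF, 119 to 137.95 in CS and 138.29 to 159 in PF+CS. PF and PF+CS did not overlap Veh, nor did PF+CS overlap CS. The summed thalamus markers were 275 to 342 CPM in CS, above the 250 to 267 CPM of Veh. Adora2a of striatum went the other way in PF by group mean. The part of these markers was not tested. Whether fewer cells of a type or less RNA per cell lies behind a level cannot be told apart in bulk tissue. The labels do not say whether replicates of a group came from separate cages or days, so p-values measure the spread between these libraries.

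Promoters of nuclear genes for mitochondrial ribosomal proteins are known targets of NRF1, of the ETS factor GABP and of YY1. RefSeq windows of 300 bases (250 before and 50 after the start, GRCm38.p6) were available for 68 of the 77 members; Mrpl4, Mrpl13, Mrpl15, Mrpl19, Mrpl38, Mrpl54, Mrps28, Mrps34 and Mrps35 had none. The letters GCATGCG (NRF1) stood on either strand in 8 of the 68 windows (11.8%), against 6.27% of 10925 windows of tested genes and 3.64% of all 27025. The ETS letters CCGGAAG stood in 24 (35.3%), against 16.3% and 9.12%. The YY1 letters AAGATGG stood in 13 (19.1%), against 6.95% and 6.48%. At least 1 of the 3 was found in 36 windows (52.9%, against 26.6% and 17.7%), 9 windows held 2 or more, and 32 held none. The median GC content of the windows was 58.2% for members and 61.0% for tested genes. These matches are descriptions of letters, not of binding.

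6 windows are shown because they hold the members that passed a test and had a window (Mrpl9, Mrpl2, Mrps6 and Mrpl41), the window with the most NRF1 matches (Mrpl32) and a promoter shared with a gene of the same process (Mrps12). Capitals mark the searched letters, and positions count the start as 1. Mrpl9 (chr3:94443086-94443385, plus strand) has 2 overlapping NRF1 matches, 1 on each strand, from −27 and −26. Mrpl32 (chr13:14612988-14613287, minus strand) has 5, from −86, −85, −65, −23 and −22, where the neighbouring pairs overlap on opposite strands, and a YY1 match from −241. Mrps12 (chr7:28741772-28742071, minus strand) has a YY1 match from −198 and an ETS match from 2. Mrpl2 (chr17:46645971-46646270, plus strand, the top entry of 3 windows), Mrps6 (chr16:92058086-92058385, plus strand) and Mrpl41 (chr2:24975049-24975348, minus strand) hold none of the 3.
Mrpl9: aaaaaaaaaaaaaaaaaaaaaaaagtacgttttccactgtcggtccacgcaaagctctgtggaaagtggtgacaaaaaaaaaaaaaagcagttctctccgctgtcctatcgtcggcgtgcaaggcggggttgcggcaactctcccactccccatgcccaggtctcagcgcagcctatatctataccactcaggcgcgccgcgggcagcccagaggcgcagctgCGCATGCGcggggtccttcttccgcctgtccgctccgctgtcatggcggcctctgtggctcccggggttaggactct
Mrpl2: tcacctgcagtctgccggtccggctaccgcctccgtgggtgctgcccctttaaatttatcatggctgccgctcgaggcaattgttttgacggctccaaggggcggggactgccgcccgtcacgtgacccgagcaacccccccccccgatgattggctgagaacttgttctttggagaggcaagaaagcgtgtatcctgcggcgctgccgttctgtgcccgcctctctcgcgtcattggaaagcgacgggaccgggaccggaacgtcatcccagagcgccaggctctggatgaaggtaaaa
Mrps6: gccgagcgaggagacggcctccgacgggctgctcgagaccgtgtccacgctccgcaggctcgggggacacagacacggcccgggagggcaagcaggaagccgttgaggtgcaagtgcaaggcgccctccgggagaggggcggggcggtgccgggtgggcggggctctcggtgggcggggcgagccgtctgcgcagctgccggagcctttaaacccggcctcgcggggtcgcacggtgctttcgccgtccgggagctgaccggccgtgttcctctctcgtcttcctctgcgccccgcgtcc
Mrpl41: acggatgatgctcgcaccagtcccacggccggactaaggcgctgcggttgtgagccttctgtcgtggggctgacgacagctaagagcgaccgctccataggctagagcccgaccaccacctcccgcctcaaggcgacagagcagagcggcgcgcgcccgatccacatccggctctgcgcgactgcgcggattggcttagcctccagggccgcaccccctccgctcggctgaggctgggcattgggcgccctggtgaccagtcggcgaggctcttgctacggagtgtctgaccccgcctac
Mrpl32: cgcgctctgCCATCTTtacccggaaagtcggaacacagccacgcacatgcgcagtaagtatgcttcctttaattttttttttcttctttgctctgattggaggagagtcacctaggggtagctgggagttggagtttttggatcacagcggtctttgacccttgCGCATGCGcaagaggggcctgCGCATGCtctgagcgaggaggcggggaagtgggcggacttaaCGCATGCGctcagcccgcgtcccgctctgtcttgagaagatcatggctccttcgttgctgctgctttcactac
Mrps12: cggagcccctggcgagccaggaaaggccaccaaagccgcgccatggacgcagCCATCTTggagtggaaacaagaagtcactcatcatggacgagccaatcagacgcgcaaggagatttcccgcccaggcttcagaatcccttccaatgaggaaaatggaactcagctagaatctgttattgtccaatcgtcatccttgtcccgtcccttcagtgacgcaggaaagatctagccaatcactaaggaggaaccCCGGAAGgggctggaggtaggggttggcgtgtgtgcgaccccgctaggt

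Many members start back to back with another gene. For 33 of 77 (42.9%) the start lay within 1000 bases of the start of a protein-coding gene on the opposite strand, against 14.8% of 13396 protein-coding genes tested. Mrps12, in the decoding centre of the small subunit, starts 172 bases from Sars2, the mitochondrial seryl-tRNA synthetase. Mrpl36 overlaps the start of Ndufs6, a subunit of respiratory complex I, by 29 bases, and Mrpl32 starts 75 bases from Psma2, a proteasome subunit. Mrps11 and Mrpl46 overlap each other head to head by 412 bases (chr7:78783119-78792989 and chr7:78775236-78783531). In all, exons of 32 members overlap exons of another gene, for 8 of them on the same strand and for 27 on the other. The strand used in counting is not given in the sources used here, so reads of such members cannot be told from those of the overlapping gene.

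On the FPKM scale, which divides by transcript length, the members were moderately expressed, with a median of 5.87 FPKM over the 77 against 2.99 FPKM for all tested genes, 63.0 FPKM for 74 cytosolic ribosomal protein genes and 29.6 FPKM for 77 nuclear genes of oxidative phosphorylation. Mrps21 was the highest at 23.0 ± 2.65 FPKM (SD over 16 libraries), with libraries between 18.8 and 30.0 FPKM. It was followed by the large-subunit genes Mrpl42 (14.6 ± 0.994 FPKM), Mrpl52 (14.1 ± 1.76 FPKM), Mrpl20 (14.1 ± 0.950 FPKM) and Mrpl30 (13.8 ± 0.987 FPKM). Every library of Mrps21 was above every library of these 4, whose own ranges overlapped, so their order does not stand out from their spread.

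At the low end stood Mrpl19 (1.73 ± 0.143 FPKM), Mrpl17 (1.76 ± 0.200 FPKM), Mrpl15 (2.15 ± 0.263 FPKM), Mrps28 (2.29 ± 0.439 FPKM) and Mrps25 (2.31 ± 0.110 FPKM). Neighbours in this order overlapped, while every library of Mrps25 (2.13 to 2.63 FPKM) was above every library of Mrpl19 (1.56 to 2.09 FPKM). Counts gave another order. Mrps25 had the most counts of all members (6226 in total, mean 42.1 CPM), Mrpl17 was at 35.3 CPM and Mrps21 at 14.3 CPM. Mrpl41 (longest transcript 776 bases) was at 36.9 CPM and 5.18 FPKM, and Mrpl23 (3715 bases) at 3.775 CPM and 7.38 FPKM. Why the deposited counts and FPKM rank members differently was not tested. The median was 5.90 FPKM over 50 large-subunit genes and 5.31 FPKM over 26 small-subunit genes. It was 5.90 FPKM for the 46 genes with bacterial homologues and 5.76 FPKM for the 30 specific to mitochondria.

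**Figure D1:**
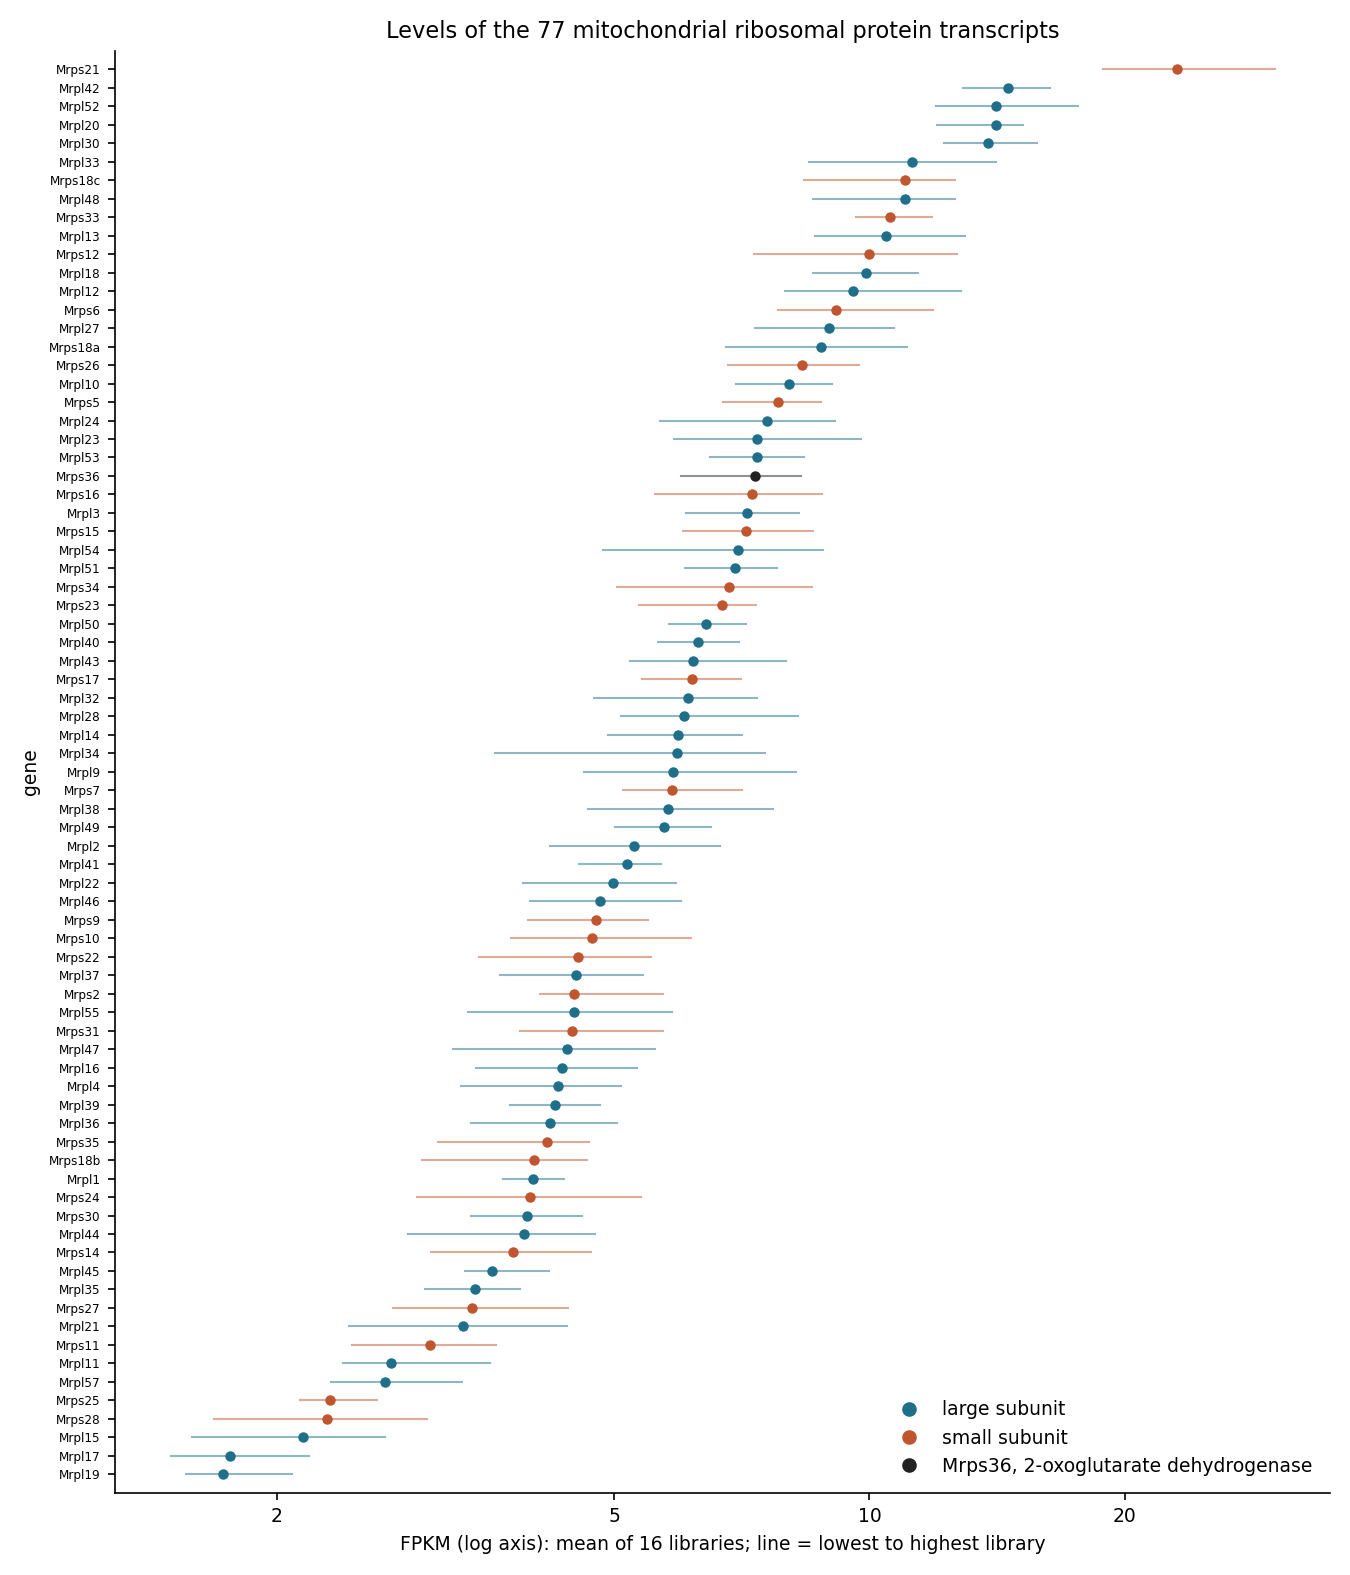
FPKM of each of the 77 genes, ordered by mean, on a log axis; points are means of 16 libraries, lines run from the lowest to the highest library, and colours give the subunit. On this scale Mrps21 at 23.0 FPKM stands above all others, and both subunits span most of the range.

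Summed over the 77 genes, the transcripts were lower in every CS and PF+CS library than in every Veh and PF library. The sums were 1548, 1563, 1588 and 1566 CPM in Veh and 1600, 1593, 1532 and 1568 CPM in PF, where CPM are scaled by the trimmed mean of M values (TMM). In CS they were 1493, 1510, 1503 and 1476 CPM, and in PF+CS 1518, 1496, 1499 and 1511 CPM. The 8 libraries labelled with DMSO (1532 to 1600 CPM) thus did not overlap the 8 labelled with celastrol (1476 to 1518 CPM), whose mean was 4.41% lower, while the mean of the 8 rationed libraries was 0.57% above that of the 8 freely fed ones. The group means (SD, n = 4) were 1566 ± 16.5 CPM for Veh, 1573 ± 30.6 CPM for PF, 1495 ± 14.3 CPM for CS and 1506 ± 10.4 CPM for PF+CS. No test was made of this sum, since the genes were chosen with earlier results known. If the names CS and PF are exchanged, the split is between freely fed and rationed mice instead.

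As a share of raw counts the sum was 0.153 to 0.158% in the DMSO-labelled libraries and 0.149 to 0.152% in the celastrol-labelled ones, again without overlap. The exact 95% binomial interval was 0.146 to 0.151% for the lowest library (PF+CS 2) and 0.154 to 0.161% for the highest (PF 1), and counting error alone was 0.703 to 1.03% of a library's sum; these cover counting error only. Without the 45S ribosomal RNA precursor row Rn45s, which took 2.44 to 5.62% of counts, the celastrol-labelled mean was 4.53% lower, without overlap. By median-ratio scaling it was 4.12% lower, without overlap. Summed FPKM were 7.24% lower in the celastrol-labelled libraries, with overlap (466 to 504 FPKM against 495 to 555 FPKM).

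Markers of other cells differed between the same libraries. The summed level of 5 endothelial markers was 116 to 157 CPM in the DMSO-labelled and 159 to 210 CPM in the celastrol-labelled libraries, which did not overlap either, in the direction opposite to that of the ribosomal proteins. By group mean Flt1, Pecam1 and Cdh5 were higher in both celastrol-labelled groups than in both others. Cldn5 was lower in CS (7.49 CPM) than in Veh (8.16 CPM), and Slco1a4 lower in PF+CS (52.7 CPM) than in Veh (57.2 CPM). No endothelial marker was at 0 in any library, and their part in the result was not tested. Within groups, over the 11 libraries not low in meningeal markers, the mean log2 level of the 77 genes was lower where that of the endothelial markers was higher (Pearson r = −0.64, Spearman rho = −0.53). Over these 11 that relation rests on few libraries, since r was −0.32 without the 2 farthest from the median. For the meningeal markers r was −0.56 and rho −0.58 over the same libraries, and r was −0.60 without the 2 farthest. With the libraries low in meningeal markers included, r within groups was stronger over all 16 libraries. It was −0.84 for the endothelial and −0.85 for the meningeal markers. These are descriptions of libraries that share depth and scaling. The 3 DMSO-labelled libraries low in meningeal markers had the highest sums of the 77 genes (1588 to 1600 CPM) in Veh and PF. Without all 5 such libraries the celastrol-labelled mean was 3.73% lower, still without overlap (1476 to 1518 CPM against 1532 to 1568 CPM). The ratio of the summed large-subunit to the summed small-subunit CPM (SD, n = 4) was 2.21 ± 0.0348 for Veh, 2.17 ± 0.0620 for PF, 2.17 ± 0.0592 for CS and 2.21 ± 0.0901 for PF+CS, and these overlapped.

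**Figure D2:**
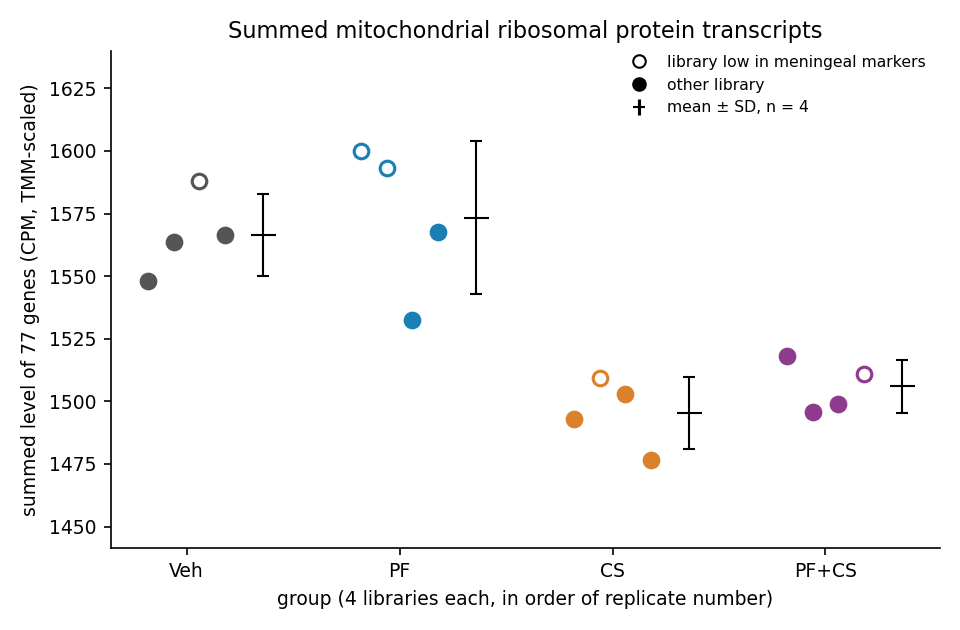
Summed CPM of the 77 genes in each library (points, in order of replicate number) with group mean ± SD (n = 4); the axis does not start at 0, and open points are libraries low in meningeal markers. Veh and PF libraries lie between 1532 and 1600 CPM, above all CS and PF+CS libraries, which lie between 1476 and 1518 CPM.

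Celastrol with free food (CS minus Veh) changed no member by edgeR's quasi-likelihood test at an adjusted p of 0.05, where 0.893% of all genes were called. At an unadjusted p under 0.05, 11 of 77 were lower (14.3%, against 8.12% of all genes) and 0 higher (6.29% of all genes). Voom called 0 as well, where 0.88% of all genes were called. Limma on log2 FPKM (pseudocount 1) called 0 members and only 0.0812% of all genes, so its 0 says little. DESeq2 called 0, where 4.27% of all genes were called, but gave an adjusted p to only 9 of the 77. The median log2 difference of the 77 was −0.07 against −0.00 for all genes, and 59 (76.6%) were fitted lower, against 50.4% of all genes. Without overlap between the libraries 5 were lower (6.49%, against 5.27%), namely Mrpl2, Mrpl9, Mrpl30, Mrps26 and Mrps34, and 0 higher (3.68% of all genes). In CS the summed endothelial (159 to 199 CPM against 132 to 151 CPM) and thalamus markers (275 to 342 CPM against 250 to 267 CPM) were higher without overlap. The 2 measured choroid plexus markers were lower (35.95 to 40.35 CPM against 41.43 to 50.56 CPM). Among these, Cldn5 went the other way by group mean, and the part of these markers was not tested.

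The 3 members with the smallest p were Mrpl9, Mrps34 and Mrpl23. Mrpl9, a large-subunit protein with a bacterial homologue, was at 28.3, 28.4, 28.9 and 28.4 CPM in Veh and at 23.8, 24.1, 24.6 and 22.4 CPM in CS, a log2 difference of −0.27 ± 0.08 (SE, adjusted p = 0.103). All 4 CS libraries lay below all 4 Veh libraries. When only the Veh and CS libraries were fitted, Mrpl9 passed, as the sole member (adjusted p = 0.044), where 1.14% of all genes were called lower.

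Mrps34, a mitochondria-specific small-subunit protein whose loss in humans causes a mitochondrial disease, was at 19.1, 20.2, 18.3 and 17.5 CPM in Veh and at 14.106, 14.620, 15.402 and 16.004 CPM in CS (log2 −0.31 ± 0.10, adjusted p = 0.106). These groups did not overlap either. Mrpl23, at the exit of the tunnel through which new peptides leave, had only 21 to 53 counts in a library. It was at 4.80, 5.37, 4.16 and 3.64 CPM in Veh and 2.70, 2.88, 2.76 and 3.83 CPM in CS (log2 −0.54 ± 0.18, adjusted p = 0.145), and CS 4 lay within the Veh range.

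The ration alone (PF minus Veh) also changed no member by edgeR's test, where 3.63% of all genes were called; at an unadjusted p under 0.05, 5 were higher (10.4% of all genes) and 2 lower (8.03%). Voom called 2, with 3.59% of all genes called, limma on log2 FPKM (pseudocount 1) 1, with 0.880%, and DESeq2 0, with 3.81%. The summed level of 5 microglial markers, none at 0 in any library, was 138 to 145 CPM in Veh and 101 to 120 CPM in PF, without overlap, and 1 of the 5 fell. The summed striatum markers were higher in PF (132 to 154 CPM against 118 to 131 CPM), also without overlap. The part of these markers in the result was not tested. The median log2 difference was −0.01 over the 77 and −0.00 over all genes, with 41 fitted lower (53.2%, against 50.2%). Without overlap 4 were higher (Mrpl15, Mrpl24, Mrps6 and Mrps25; 4.59% of all genes were) and 1, Mrpl2, lower (3.67% of all genes).

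Mrpl2, which lies near the site where peptide bonds form, was at 17.1, 18.0, 17.9 and 17.5 CPM in Veh and at 13.002, 15.171, 15.167 and 12.718 CPM in PF (log2 −0.33 ± 0.10, adjusted p = 0.0569). Every PF library lay below every Veh library. Leaving out PF 3 or PF+CS 4 brought Mrpl2 under the threshold (adjusted p = 0.0361 at most). Mrps6, a small-subunit protein, was at 12.98, 14.06, 15.46 and 16.33 CPM in Veh and at 17.06, 19.13, 17.08 and 20.46 CPM in PF, without overlap (log2 0.33 ± 0.10, adjusted p = 0.0574). It passed without CS 2, PF 3 or Veh 4 (adjusted p up to 0.0472). Mrpl15 was higher in PF by log2 0.20 ± 0.08 (adjusted p = 0.152).

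Between the 2 single treatments (CS minus PF), whose food intake was not matched, 3 members fell and none rose by edgeR's test, 3.90% of the 77 against 2.23% of all genes called lower and 3.80% called in either direction. The median was −0.08 against −0.01 for all genes, 55 were fitted lower (71.4%, against 52.8%), and 6 were lower without overlap (7.79%, against 6.04%) and 0 higher (4.64% of all genes). At an unadjusted p under 0.05, 11 were lower (14.3%, against 10.3%) and 0 higher (7.64% of all genes). Since this contrast changes sign if the names are exchanged, the direction of all of these is as uncertain as the names.

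Mrpl9 (chr3:94443318-94451130) was at 36.1, 27.8, 24.0 and 30.0 CPM in PF and fell to 23.8, 24.1, 24.6 and 22.4 CPM in CS (log2 −0.31 ± 0.08, adjusted p = 0.035). PF 1 was the highest and PF 3 lay inside the CS range. The call was lost without CS 1, CS 2, CS 3, CS 4, PF 1 or PF 4, with adjusted p of 0.053 to 0.174, the last without PF 1, where the log2 difference was −0.21.

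Mrpl15 (chr1:4773206-4785739), a core protein of the large subunit, was at 25.7, 27.2, 26.4 and 28.6 CPM in PF and at 24.2, 22.5, 19.7 and 23.0 CPM in CS (log2 −0.28 ± 0.08, adjusted p = 0.0396). The groups did not overlap. Leaving out CS 1, CS 2, CS 3, CS 4, PF 1, PF 2, PF 4, PF+CS 1, PF+CS 2 or Veh 2 ended the call, with adjusted p of 0.0509 to 0.172.

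Mrps6 (chr16:92058270-92112227) was at 13.9, 17.5, 13.7 and 13.8 CPM in CS, against the PF values above (log2 −0.34 ± 0.10, adjusted p = 0.0486). CS 2 alone reached into the PF range. Its exons overlap, on the same strand, those of Slc5a3, a transporter of the osmolyte myo-inositol with more counts (38419 over all libraries, against 2375 for Mrps6). Slc5a3 fell in the same contrast by log2 −0.43 ± 0.09 (adjusted p = 0.0234), and how reads were divided between both genes was not tested. The call of Mrps6 was lost without any 1 of 12 libraries (CS 1, CS 3, CS 4, PF 1, PF 2, PF 4, PF+CS 1, PF+CS 2, PF+CS 3, Veh 2, Veh 3 and Veh 4; adjusted p of 0.0506 to 0.221). Of 10 other settings, 4 ended the call of Mrpl9, 6 that of Mrpl15 and 8 that of Mrps6. Limma on log2 FPKM called none of the 3 (0.663% of all genes called lower with pseudocount 1). DESeq2 called 1 (2.07% of all genes called lower) and the fit without the 5 libraries low in meningeal markers 1 (1.51%). In this contrast the summed endothelial (159 to 199 CPM against 116 to 157 CPM) and microglial markers (131 to 138 CPM against 101 to 120 CPM) were higher in CS without overlap. So were the summed oligodendrocyte markers (3277 to 3576 CPM against 2724 to 3048 CPM). The group means of Tmem119 (microglia, 8.45 CPM in CS and 9.54 CPM in PF) and Mobp (oligodendrocytes, 262 and 272 CPM) went the other way. Those of the other markers in these lists were higher in CS. The 2 measured choroid plexus markers, summed, were lower in CS (35.95 to 40.35 CPM) than in PF (40.57 to 48.15 CPM), without overlap. The part of these markers was not tested.

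**Figure D3:**
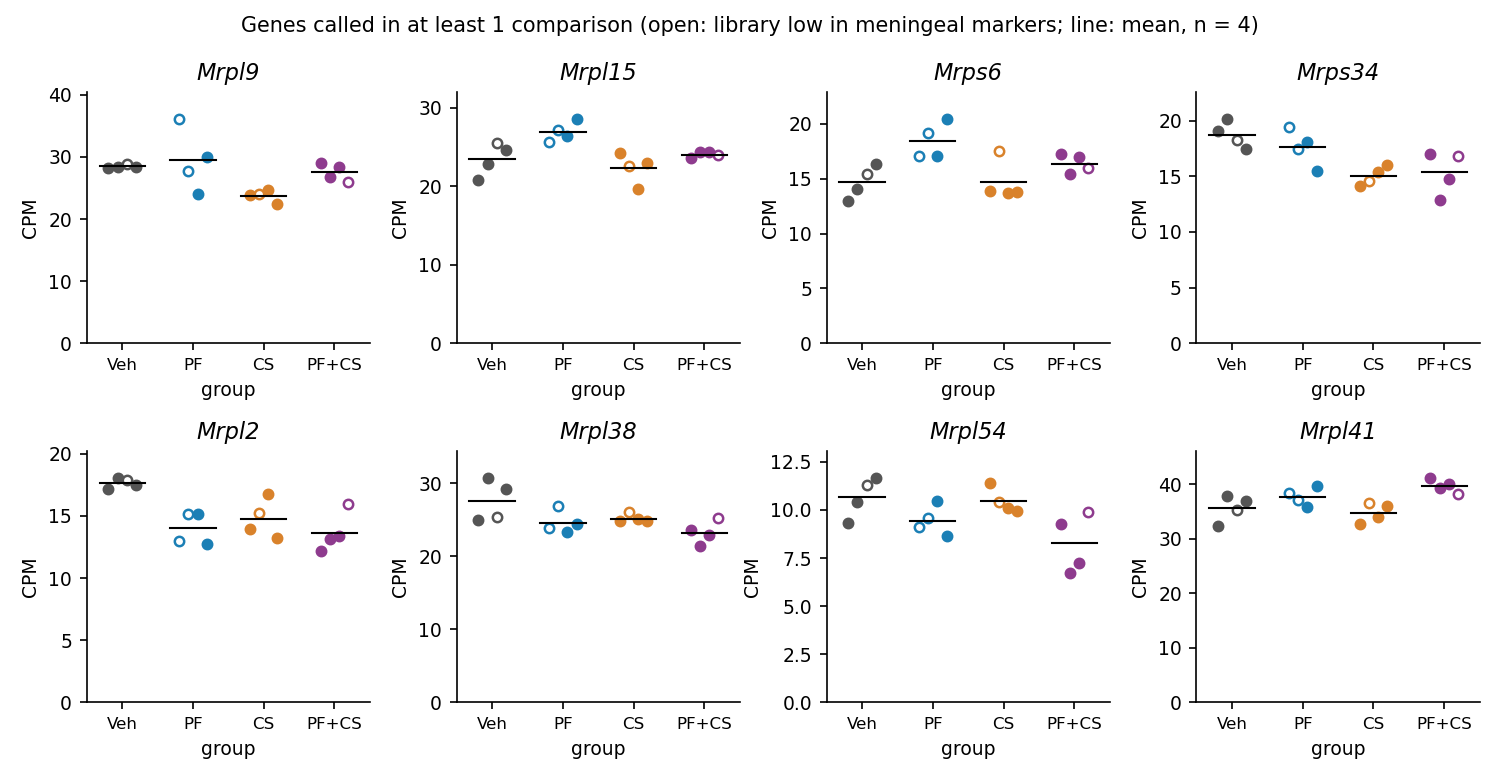
CPM in each library (points, by group and in order of replicate number) of the 8 genes that passed edgeR's test in at least 1 comparison, including the contrasts averaged over arms; lines are means of 4 libraries and open points are libraries low in meningeal markers. Mrpl15 in CS lies wholly below PF, Mrpl2 in PF+CS wholly below Veh, and CS 2 stands out in Mrps6.

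Under the ration, celastrol (PF+CS minus PF) changed no member by edgeR's test, where 0.0948% of all genes were called. Voom, with 0.0948% of all genes called, and DESeq2, with 0.234% (75 of 77 members with an adjusted p), called no member either. Limma on log2 FPKM called no gene at all (0.0%). With an unadjusted p under 0.05, 4 were lower (5.19%, against 3.66% of all genes) and 1 higher (4.19% of all genes). The median was −0.08 against −0.01 for all genes, and 57 of 77 were fitted lower (74.0%, against 52.7%). Without overlap 5 were lower (Mrpl13, Mrpl15, Mrpl48, Mrps5 and Mrps16; 2.00% of all genes were) and 0 higher (2.16% of all genes). Mrpl13 was at 26.7, 23.6, 25.3 and 23.8 CPM in PF and 21.3, 19.3, 20.6 and 23.0 CPM in PF+CS (log2 −0.23 ± 0.08, adjusted p = 0.381). The small-subunit gene Mrps16 (log2 −0.32 ± 0.12, adjusted p = 0.471) and Mrpl15 (−0.17 ± 0.08, adjusted p = 0.577) came next. In PF+CS the summed endothelial markers were higher (168 to 210 CPM against 116 to 157 CPM) without overlap. The summed astrocyte markers were lower (1166 to 1229 CPM against 1244 to 1300 CPM), also without overlap. The part of both was not tested.

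PF+CS minus PF shares no library with CS minus Veh, so their values can be set side by side. Of the 77 members, 46 were fitted lower in both (59.7%, against 31.1% of all genes), 7 higher in both (9.1%, against 28.0%) and 24 in opposite directions. Since 76.6% and 74.0% of the 77 were fitted lower in each contrast alone, a large share lower in both follows from these shifts. The share therefore does not show that the same genes differed in both. Over the 77 genes the 2 differences correlated weakly (Pearson r = 0.24, Spearman rho = 0.18; genes are not independent), beside 0.28 and 0.26 over all genes. PF minus Veh and PF+CS minus CS, which also share no library, gave 23 members lower in both (29.9%, against 31.6%) and 25 higher in both (32.5%, against 32.7%). Their r was 0.345 and rho 0.338 over the 77, beside 0.64 and 0.42 over all genes.

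In celastrol-treated mice the ration (PF+CS minus CS) changed no member by edgeR's test, where 2.65% of all genes were called. DESeq2 (2.69% of all genes called), voom (2.59%) and limma on log2 FPKM (0.541% with pseudocount 1) called no member either. At an unadjusted p under 0.05, 2 were higher (9.20% of all genes) and 3 lower (6.82%). The median was 0.02 against 0.00 for all genes, 34 were fitted lower (44.2%, against 48.7%), and 4 members were higher and 4 lower without overlap (5.75% and 4.33% of all genes). Mrpl41, a mitochondria-specific large-subunit protein, was at 32.63, 36.55, 33.94 and 36.01 CPM in CS and at 41.114, 39.380, 39.992 and 38.172 CPM in PF+CS (log2 0.19 ± 0.06, adjusted p = 0.0903). These groups did not overlap. Mrpl54 (log2 −0.34 ± 0.12, adjusted p = 0.134, and 0.0371 without PF+CS 4) and Mrpl44, an RNase III-like protein of the large subunit (−0.27 ± 0.10, adjusted p = 0.153), were lower in every PF+CS library than in every CS library. In PF+CS the summed oligodendrocyte (2701 to 3168 CPM against 3277 to 3576 CPM) and microglial markers (100.4 to 128 CPM against 131 to 138 CPM) were lower without overlap. The summed striatum markers were higher (138.29 to 159 CPM against 119 to 137.95 CPM). Among these, Mobp and Tmem119 went the other way by group mean. The part of these markers was not tested.

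Both treatments together (PF+CS minus Veh), the contrast that does not rest on the names, lowered 3 members and raised none, 3.90% of the 77 against 4.47% of all genes called lower and 10.3% called in either direction. The share called lower was thus near that of all genes. The median was −0.06 against −0.00 for all genes, 58 were fitted lower (75.3%, against 50.7%), and 8 were lower (10.4%, against 6.84%) and 2 higher (6.82% of all genes) without overlap. At an unadjusted p under 0.05, 11 were lower (14.3%, against 11.9%) and 2 higher (12.9% of all genes).

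All 3 belong to the large subunit. Mrpl2 (chr17:46646229-46650139) was at 12.2, 13.1, 13.4 and 15.9 CPM in PF+CS, wholly below the 17.1 to 18.0 CPM of Veh (log2 −0.38 ± 0.10, adjusted p = 0.0148). It passed under every alternative setting that kept all libraries, and only leaving out PF+CS 1 ended the call (log2 −0.32, adjusted p = 0.0667). In the authors' deposited table for these groups it was the sole member called (log2 −0.27, adjusted p = 0.0469).

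Mrpl38 (chr11:116131817-116138868), a protein of the central protuberance of the large subunit, was at 24.9, 30.7, 25.3 and 29.2 CPM in Veh and at 23.6, 21.3, 22.9 and 25.2 CPM in PF+CS (log2 −0.25 ± 0.08, adjusted p = 0.0387). PF+CS 4 overlapped with Veh 1. Without PF+CS 1, PF+CS 2, PF+CS 3, Veh 2 or Veh 4 the adjusted p was 0.074 to 0.167, and 4 of 10 other settings ended the call (up to 0.138).

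Mrpl54 (chr10:81264713-81266934), near the base of the stalk, was at 9.35, 10.4, 11.3 and 11.7 CPM in Veh and at 9.25, 6.73, 7.26 and 9.90 CPM in PF+CS (log2 −0.38 ± 0.12, adjusted p = 0.042). Here PF+CS 4, a library low in meningeal markers, was above Veh 1. Leaving out CS 3, CS 4, PF+CS 2, PF+CS 3, Veh 2, Veh 3 or Veh 4 ended the call (adjusted p of 0.0502 to 0.164), as did 5 of 10 other settings (up to 0.121). DESeq2 called 1 member lower in this contrast, against 3.17% of all genes. Limma on log2 FPKM (pseudocount 1) called 11 lower, against 6.04% of all genes, and the fit without the 5 libraries low in meningeal markers 5, against 6.50%. In PF+CS, the summed microglial (100.4 to 128 CPM against 138 to 145 CPM in Veh) and astrocyte markers (1166 to 1229 CPM against 1248 to 1312 CPM) were lower without overlap. The summed endothelial markers (168 to 210 CPM against 132 to 151 CPM) and striatum markers (138 to 159 CPM against 118 to 131 CPM) were higher without overlap. Among these, Slco1a4 went the other way by group mean (52.7 CPM in PF+CS and 57.2 CPM in Veh). The part of all these markers was not tested.

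The interaction, which asks whether the celastrol difference depends on the ration, called no member and no gene (0.0% of all genes) by edgeR's test, and DESeq2, voom and limma on log2 FPKM called no member; at an unadjusted p under 0.05, 2 members were higher (2.72% of all genes) and 0 lower (2.29%), and 40 were fitted lower (51.9%, against 49.5%). The SE of the interaction was 0.08 to 0.26 over the members. Mrps24, at the mRNA channel, had an interaction of log2 0.37 ± 0.17 (adjusted p = 0.913), Mrpl21 of 0.34 ± 0.16 (adjusted p = 0.913) and Mrpl44 of −0.27 ± 0.14 (adjusted p = 0.913).

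Averaging over arms, a pair of contrasts chosen after seeing the data, uses 8 against 8 libraries. For celastrol averaged over both feeding arms, 1 member fell and none rose (1.30%, against 1.45% of all genes called lower and 2.59% called in either direction). It was Mrps34 (chr17:24895116-24897502), at 17.5 to 20.2 CPM in Veh, 15.5 to 19.4 CPM in PF, 14.106 to 16.004 CPM in CS and 12.9 to 17.0 CPM in PF+CS (log2 −0.25 ± 0.07, adjusted p = 0.0466). PF 4 lay inside the range of the celastrol-labelled libraries. The call was lost without any 1 of 12 libraries (adjusted p of 0.0575 to 0.129; CS 1 to 4, PF 1 to 3, PF+CS 2, PF+CS 3 and Veh 1 to 3). It was also lost in 8 of 9 other settings, all but voom, with adjusted p up to 0.195 without the libraries low in meningeal markers. Exons of Mrps34 overlap those of Nme3 on the same strand, which differed by log2 −0.18 ± 0.08 (adjusted p = 0.287). The median of the 77 was −0.08 against −0.00 for all genes, 61 were fitted lower (79.2%, against 51.2%), and 0 were lower or higher without overlap between the 8 and 8 libraries (0.162% and 0.0948% of all genes). Unadjusted p-values under 0.05 were found for 12 members that were lower (15.6%, against 8.71%) and 1 that was higher (7.03% of all genes).

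For the ration averaged over both drug arms, 2 members rose and 2 fell, against 6.92% and 4.52% of all genes, 11.4% in either direction. Mrps6 (log2 0.25 ± 0.07, adjusted p = 0.0204) and Mrpl41 (0.14 ± 0.04, adjusted p = 0.0377) rose, and Mrpl2 (−0.23 ± 0.07, adjusted p = 0.0353) and Mrpl54 (−0.27 ± 0.09, adjusted p = 0.0427) fell. In other settings the call of Mrps6 was kept in all 9, while that of Mrpl2 ended in 2, that of Mrpl41 in 6 and that of Mrpl54 in 6. The summed microglial markers were lower in every rationed library (100.4 to 128 CPM) than in every freely fed one (131 to 145 CPM), 3 of the 5 fell, and their part in these results was not tested. Slc5a3 rose here too, by log2 0.34 ± 0.06 (adjusted p = 0.00398). The call of Mrps6 was lost without PF 4 (adjusted p = 0.073), that of Mrpl2 without CS 2, CS 3, PF 1, PF 4, PF+CS 1, PF+CS 2, PF+CS 3 or Veh 2 (0.0556 to 0.0956). Mrpl41 lost its call without CS 1, CS 3, PF 1, PF 4, PF+CS 1, PF+CS 2, PF+CS 3, Veh 1 or Veh 3 (0.0611 to 0.116). Mrpl54 lost it without any library other than PF 3, PF+CS 1, PF+CS 4 or Veh 1 (0.0532 to 0.102). The median of the 77 was 0.01 against 0.00 for all genes, and 37 were fitted lower (48.1%, against 49.7%). At an unadjusted p under 0.05, 7 were higher (13.4% of all genes) and 5 lower (11.0%), and 0 were higher or lower without overlap (0.812% and 0.305% of all genes). These 2 averaged contrasts trade places if the names are exchanged.

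**Figure D4:**
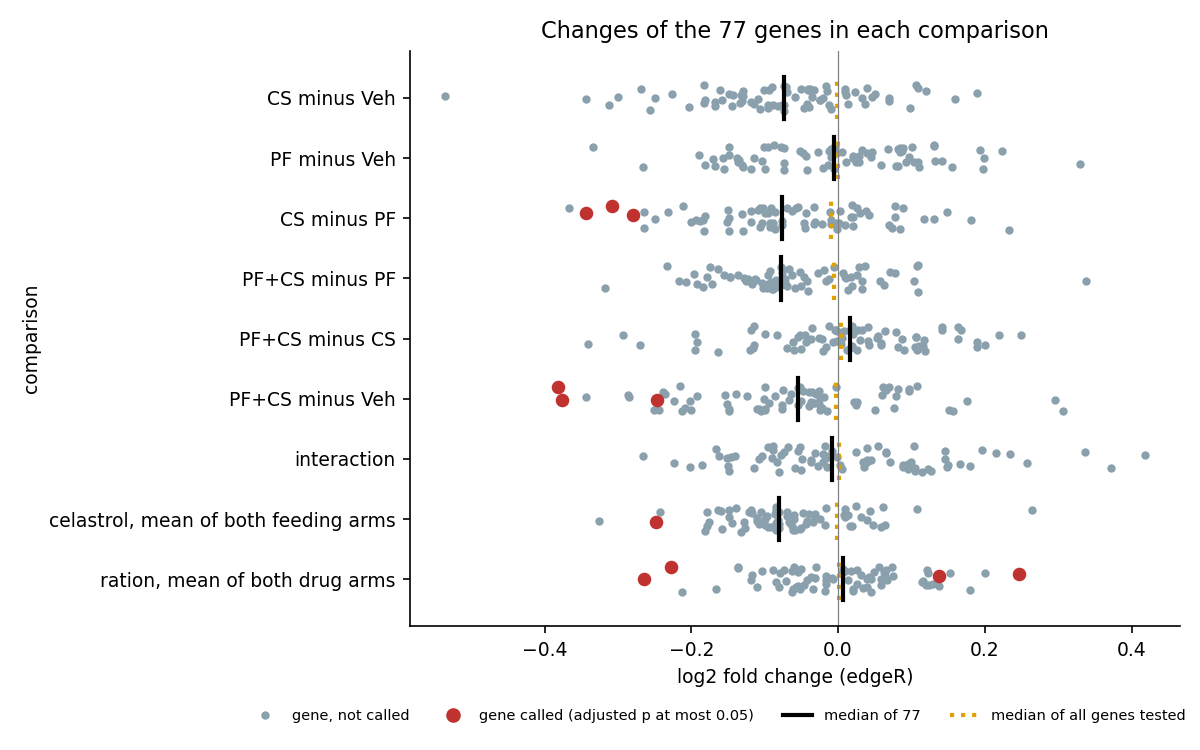
Log2 differences of the 77 genes (points) in each of 9 comparisons, with the median of the 77 (black line) and of all genes tested (dotted line); large points passed edgeR's test. In CS minus Veh and PF+CS minus PF, and also in CS minus PF and PF+CS minus Veh, the black line lies left of 0, between −0.08 and −0.06, and in PF minus Veh and PF+CS minus CS it lies near 0.

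Members followed for their roles were not called in any comparison, apart from Mrps34, which in PF+CS minus Veh was lower without overlap (log2 −0.29 ± 0.10, adjusted p = 0.0545). Mrpl12, the stalk protein that recruits translation factors, differed by log2 −0.14 ± 0.09 in CS minus Veh, −0.23 ± 0.09 in CS minus PF (adjusted p = 0.144) and −0.00 ± 0.09 in PF+CS minus Veh. Mrps12, in the decoding centre, differed by −0.07 ± 0.11, −0.26 ± 0.11 (adjusted p = 0.189) and 0.10 ± 0.11. Mrpl45, which ties the ribosome to the inner membrane, stayed between −0.10 and −0.01 in the 6 contrasts of groups. Mrps30 stayed between −0.05 and 0.03. Mrps18a was lower in CS than in PF in every library (16.3 to 20.9 CPM against 21.1 to 24.5 CPM; log2 −0.26 ± 0.09, adjusted p = 0.0885).

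Mrps36, the member that is no ribosomal protein, lay on the other side. It was at 3.24, 4.19, 4.47 and 4.47 CPM in Veh and at 4.84, 5.36, 5.11 and 5.01 CPM in PF+CS, without overlap (log2 0.29 ± 0.16, adjusted p = 0.251). Averaged over the feeding arms its celastrol difference was 0.26 ± 0.11 (adjusted p = 0.241), the highest of the 77, at 25 to 61 counts in a library.

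Medians lay below 0 in each class of protein. In CS minus Veh the median log2 difference was −0.08 over the large subunit and −0.05 over the small subunit, with 41 of 50 and 18 of 26 fitted lower. In PF+CS minus PF it was −0.08 in both, with 37 and 20 fitted lower. Genes with bacterial homologues had medians of −0.08 and −0.09 in these contrasts, and mitochondria-specific genes of −0.05 and −0.07. Members whose exons overlap no other gene had medians of −0.07 and −0.08, and members with overlapping exons −0.09 and −0.08. The SE of a single member was 0.05 to 0.18 in CS minus Veh, with a median of 0.09, so most single differences of this size lay within their error.

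Around the ribosome, few genes were called. No gene was called in any of the 6 contrasts of groups or the interaction among 6 further ribosomal proteins with other names, such as Dap3, nor among 14 translation factors, 22 assembly factors measured of 26, 17 mitochondrial tRNA synthetases and 13 genes of mitochondrial transcription and RNA. In CS minus Veh their medians were −0.02, 0.00, −0.08, −0.14 and 0.02. Over the 6 contrasts of groups and the interaction, the share of all genes called ran from 0.0% (interaction) and 0.0948% (PF+CS minus PF) to 10.3% (PF+CS minus Veh). In the ration averaged over drug arms, the assembly factor Trub2, an RNA pseudouridine synthase, fell by log2 −0.18 ± 0.06 (adjusted p = 0.0315), the sole call of these lists there or in averaged celastrol. Of all genes 11.4% were called in the averaged ration and 2.59% in averaged celastrol. Of 9 regulators of nuclear mitochondrial genes, 2 rose and 0 fell in PF+CS minus Veh, where 5.85% of all genes rose. Gabpa, the DNA-binding subunit of GABP, was at 36.6, 34.0, 42.6 and 39.1 CPM in Veh and at 48.0, 45.3, 50.3 and 41.4 CPM in PF+CS (log2 0.28 ± 0.08, adjusted p = 0.019), and PF+CS 4 lay below Veh 3. Ppargc1b, a coactivator of mitochondrial biogenesis, rose by 0.21 ± 0.07 (adjusted p = 0.0489). In the averaged ration Gabpa (log2 0.20 ± 0.05, adjusted p = 0.0153) and Myc, a growth regulator (0.43 ± 0.13, adjusted p = 0.0245), rose and Hcfc1, a transcriptional coregulator, fell by −0.09 ± 0.03 (adjusted p = 0.0381). There 6.92% of all genes rose and 4.52% fell. In PF+CS minus Veh, Nrf1 differed by 0.04 ± 0.07 and Yy1 by 0.14 ± 0.06 (adjusted p = 0.816 and 0.157).

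The other large sets for energy and translation had more calls. Of 77 nuclear genes of oxidative phosphorylation, 7 fell in CS minus Veh, 3 in PF minus Veh and 24 in PF+CS minus Veh, and none rose, where 0.589%, 1.28% and 4.47% of all genes fell. Their medians were −0.10, −0.05 and −0.12. Of 74 cytosolic ribosomal protein genes, 8, 1 and 21 fell and none rose, with medians of −0.12, −0.05 and −0.12. The mitochondrial ribosomal proteins had 0, 0 and 3 calls and medians of −0.07, −0.01 and −0.06 in the same contrasts. Their within-group spread was wider, with a median SD of 0.12 on the log2 scale, against 0.07 for the cytosolic ribosomal proteins and 0.08 for oxidative phosphorylation. The difference between these sets was not tested.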

How the data were processed

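Bulk RNA-seq libraries of mouse hypothalamus were analysed, 4 in each of 4 groups. Gene counts, deposited by the authors as whole numbers for 24047 genes, were used for tests, and FPKM values, computed by the authors and deposited, for levels. The genome build was GRCm38, per the submitters' processing notes; for the aligner, the counter and the strand setting, the sources used here give nothing. The 5 comparison tables deposited by the authors hold baseMean (a mean normalised signal), log2 fold changes, a test score and p-values. They have the columns that DESeq2 writes, per the file headers.

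Genes were filtered with edgeR's filterByExpr (minimum count 10) in R 4.3.3, which left 14775, and scaled by TMM. One model over 16 libraries and 4 groups was fitted with edgeR 4.0.16 (quasi-likelihood test), and p-values were adjusted by Benjamini-Hochberg over all genes tested. Every adjusted p of this text comes from that test unless another tool or the authors' deposited table is named, and calls use an adjusted p of at most 0.05. Alternatives used DESeq2 1.42.0, limma 3.58.1 (voom, and log2 of FPKM plus a pseudocount of 1 or 0.1), other scalings, filters and offsets, a replicate block and left-out libraries. Averaged contrasts and the fit without libraries low in meningeal markers were chosen after seeing the data. Shares have exact 95% binomial intervals. Fits were tested on simulated data.

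Members and lists were chosen with earlier results of these data known. Named members were all called ones, or in a comparison without calls the 3 with the smallest p, the 5 highest and 5 lowest by FPKM, and 7 followed for their roles. Other called genes came from the lists.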

Additional observations from a re-analysis of the deposited data

Results flagged for a closer look

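In 3 of 84 groups of 4 libraries, tested over 21 genes or sums, 1 library stood far from the other 3 by Dixon's criterion, and chance alone flags about 1 in 20 such groups. All 3 were in CS. Mrpl23 was at 3.83 CPM in CS 4 and at 2.70, 2.76 and 2.88 CPM in the others. Mrps6 was at 17.5 CPM in CS 2, a library low in meningeal markers, and at 13.7, 13.8 and 13.9 CPM in the others. Mrps24 was at 8.09 CPM in CS 4 and at 10.19, 10.55 and 10.55 CPM in the others.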

How the results depend on the processing

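No called value reversed. Percentages in this paragraph, apart from the differences in summed FPKM, are the share of all genes called under the same setting. The median log2 difference of the 77 genes was below 0 in CS minus Veh, PF+CS minus PF, CS minus PF, PF+CS minus Veh and averaged celastrol under every setting, and its sign varied in the other contrasts. In CS minus Veh the median was −0.052 with a GC and length offset and −0.10 on FPKM with pseudocount 0.1. Fitting the 2 groups alone called 1 member (1.77%). In PF minus Veh 1 was called with the offset (3.38%), 2 by voom (3.59%) and 1 with FPKM pseudocount 1 (0.880%) or 0.1 (0.920%). In CS minus PF 1 was called with no count filter (2.69%), with only both groups fitted (4.82%) and by DESeq2 (3.61%). After dropping the libraries low in meningeal markers 1 was called too (2.55%, median −0.046), and 0 with FPKM pseudocount 1 (1.03%) or 0.1 (1.2%). In PF+CS minus PF the median was −0.11 on FPKM with pseudocount 0.1. Without the libraries low in meningeal markers the median was −0.007 in PF+CS minus CS and 0.024 in the interaction. In PF+CS minus Veh 1 was called with the groups alone (8.39%) and by DESeq2 (8.38%), and 5 after dropping the meningeal-low libraries (14.8%). With either FPKM pseudocount 11 were called (7.41% with 1 and 7.40% with 0.1, medians −0.10 and −0.12). For averaged celastrol 0 were called with median-ratio size factors (2.48%), without the count filter (1.88%) and by DESeq2 (3.81%). After dropping the libraries low in meningeal markers 0 were called too (1.07%, median −0.061). Averaged celastrol had 3 calls with FPKM pseudocount 1 (1.41%) and 4 with 0.1 (1.54%, median −0.10), and a median of −0.055 with the offset. For the averaged ration 2 were called without the count filter (8.12%), with the offset (11.4%) and after dropping the meningeal-low libraries (13.7%). With FPKM pseudocount 0.1 2 were called as well (5.77%), and 1 by DESeq2 (9.0%). FPKM medians were −0.02 and −0.025. Summed FPKM by drug label differed by −7.24%, and by −6.12% without the libraries low in meningeal markers. The cause of these changes was not tested.

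With the replicate number as a block, 1 member was called in CS minus PF (2.54% of all genes were called) and 1 in PF+CS minus Veh (8.26%). For averaged celastrol 0 were called (2.27% of all genes) and for the averaged ration 2 (9.96%). Same-numbered libraries did not deviate together: the correlation of their deviations ran from −0.42 to 0.33 over 24 pairs, with a median of −0.02, so the number is not taken as a pairing.

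Leaving out 1 library at a time also moved the share of all genes called, given in brackets. It gave 0 to 2 calls in PF minus Veh (0.746 to 5.44%), 0 to 3 in CS minus PF (1.28 to 5.64%) and 0 to 1 in PF+CS minus CS (0.758 to 6.44%). In PF+CS minus Veh it gave 1 to 5 (4.77 to 13.5%), for averaged celastrol 0 to 1 (0.928 to 3.13%) and for the averaged ration 0 to 5 (7.34 to 14.1%). The rest had 0 (0.0673 to 1.63% in CS minus Veh, 0.0067 to 0.161% in PF+CS minus PF and 0.0% in the interaction). Medians then ran from −0.07 to −0.05 in CS minus Veh, −0.015 to 0.009 in PF minus Veh, −0.077 to −0.05 in CS minus PF, −0.08 to −0.06 in PF+CS minus PF, 0.002 to 0.017 in PF+CS minus CS, −0.07 to −0.05 in PF+CS minus Veh, −0.015 to 0.017 in the interaction, −0.081 to −0.06 for averaged celastrol and −0.008 to 0.012 for the averaged ration. A member had 20 to 545 counts in a library, and the median SE between groups of 4 in CS minus Veh was 0.087 on the log2 scale for members and 0.084 for all genes; counting error and spread between libraries were not separated.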
